A study of Mus musculus with 6 samples.

Results

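Adrenal capsule and fibroblast markers were 10 genes, Wt1, Tcf21, Pdgfra, Cd248, Dcn, Lum, Dpt, Mfap5, Pi16 and Clec3b, taken by symbol from the 54532 genes of the count table. Each symbol matched 1 Ensembl identifier, and all 10 passed the filter on low counts, as did 16300 genes in all. Transcripts were counted by bulk RNA sequencing in whole mouse adrenal glands, in 3 samples labelled VEGF/LysM and 3 labelled WT, for a comparison aimed at the role of macrophage-made VEGF-A in this organ. LysM is another name for the lysozyme gene Lyz2, whose locus is widely used to drive Cre in macrophages and neutrophils. The labels do not spell out the allele, and the sources used here give no strain, age or sex. Nothing states that each replicate was a separate animal, so a p-value covers only the spread among these samples, part of which may be technical.

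The adrenal gland is wrapped in a capsule of mesenchymal cells and matrix. In the mouse, capsular cells answer hedgehog signals from the outer cortex, send Wnt-pathway signals such as R-spondin 3 back to it, and include progenitors of steroid-making cells. Fibroblasts also lie around the vessels and in the connective tissue and fat outside the capsule, and a mesothelium covers abdominal organs. In a bulk sample, fewer cells of these kinds and less RNA per cell cannot be told apart.

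Promoter sequence from RefSeq (GRCm38.p6), 250 bases before to 50 after the start, was at hand for 4 of the 10 genes. The 4 promoters are shown because no others were at hand, and they were not chosen by the levels of their genes. Of all libraries, Dpt and Pi16 were lowest in VEGF/LysM replicate 3, and Tcf21 and Pdgfra in WT replicate 3. Within the VEGF/LysM group, all 4 were lowest in replicate 3. A link between promoter sequence and level was not tested. Capitals mark each CANNTG, the E-box that basic helix-loop-helix factors such as the Tcf21 protein bind, and each TATAAA, searched on both strands.
Dpt, chr1:164796413-164796712, plus strand: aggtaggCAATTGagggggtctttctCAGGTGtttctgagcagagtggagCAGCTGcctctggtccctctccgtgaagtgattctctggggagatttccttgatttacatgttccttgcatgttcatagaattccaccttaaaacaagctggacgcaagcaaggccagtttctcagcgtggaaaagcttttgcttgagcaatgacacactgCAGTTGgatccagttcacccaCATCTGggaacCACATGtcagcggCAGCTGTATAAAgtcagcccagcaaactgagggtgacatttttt
Pi16, chr17:29318632-29318931, plus strand: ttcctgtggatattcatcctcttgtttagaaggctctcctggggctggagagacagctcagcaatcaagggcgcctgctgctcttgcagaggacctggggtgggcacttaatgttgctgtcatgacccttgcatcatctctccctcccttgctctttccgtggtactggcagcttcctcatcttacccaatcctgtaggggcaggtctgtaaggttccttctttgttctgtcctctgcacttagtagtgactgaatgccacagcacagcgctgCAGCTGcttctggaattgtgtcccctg
Tcf21, chr10:22820094-22820393, minus strand: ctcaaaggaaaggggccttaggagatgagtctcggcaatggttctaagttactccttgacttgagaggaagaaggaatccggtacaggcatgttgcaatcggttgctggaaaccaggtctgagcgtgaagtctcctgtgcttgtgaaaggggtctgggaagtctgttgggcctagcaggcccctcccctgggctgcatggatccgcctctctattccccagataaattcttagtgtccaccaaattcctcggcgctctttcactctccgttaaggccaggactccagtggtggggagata
Pdgfra, chr5:75152001-75152300, plus strand: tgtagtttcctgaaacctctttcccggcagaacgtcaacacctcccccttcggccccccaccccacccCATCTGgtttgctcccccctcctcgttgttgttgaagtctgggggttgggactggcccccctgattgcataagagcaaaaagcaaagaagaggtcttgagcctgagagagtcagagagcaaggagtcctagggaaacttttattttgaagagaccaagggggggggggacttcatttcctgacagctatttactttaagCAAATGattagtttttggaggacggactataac
The Dpt window held 7 CANNTG matches and 1 TATAAA match, the Pi16 window 1 CANNTG match, the Pdgfra window 2 and the Tcf21 window 0. CANNTG was present in 72.3% and TATAAA in 13.6% of all 32851 promoter windows of the same length. CAGCTG, 1 form of CANNTG, occurred at 2 places in the Dpt window and 1 in the Pi16 window, and was present in 16.3% of all windows. These matches describe letters and are not evidence of binding.

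Libraries held 16476879 to 18671950 counts, and the cortex and medulla identity genes were expressed in all of them (summed levels of 28120 to 53345 CPM for 7 cortex genes and 3785 to 9435 CPM for 6 medulla genes). CPM is the count scaled to a common library size, here by TMM with factors of 1.02 to 1.05 in 5 libraries and 0.84 in WT replicate 3. WT replicate 3 stood apart, with 10 hepatocyte genes summing to 79783 CPM, against 263 CPM in VEGF/LysM replicate 3 and 5.82 to 11.3 CPM in each of the remaining 4. It also held 15.9 CPM of the kidney tubule transporter Slc34a1, against 1.06 CPM in VEGF/LysM replicate 3 and 0 counts in the others. The results below were therefore also computed without each of these libraries.

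The markers did not differ detectably between VEGF/LysM and WT glands. edgeR's quasi-likelihood test called 0 of the 10 at an adjusted p of 0.05, as it did for 0 of 16300 genes (0%), and the smallest adjusted p among the 10 was 0.999. At an unadjusted p under 0.05 it found 0 of the 10, against 459 of all genes (2.82%), and DESeq2 and limma-voom also called 0 of the 10. The log2 fold change, VEGF/LysM over WT, was above 0 for 4 of the 10 (50.3% of all genes) and had a median of -0.0039, with a median of 0.0013 over all genes tested. In none of the 10 did the groups separate, which they did for 5.95% of all genes (3.54% with VEGF/LysM higher and 2.41% with it lower). The 95% intervals reached 0.56 to 1.26 log2 units to either side, wider than the median of 0.61 over all genes for 9 of the 10, so differences below those sizes were not detectable here.

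**Figure D1:**
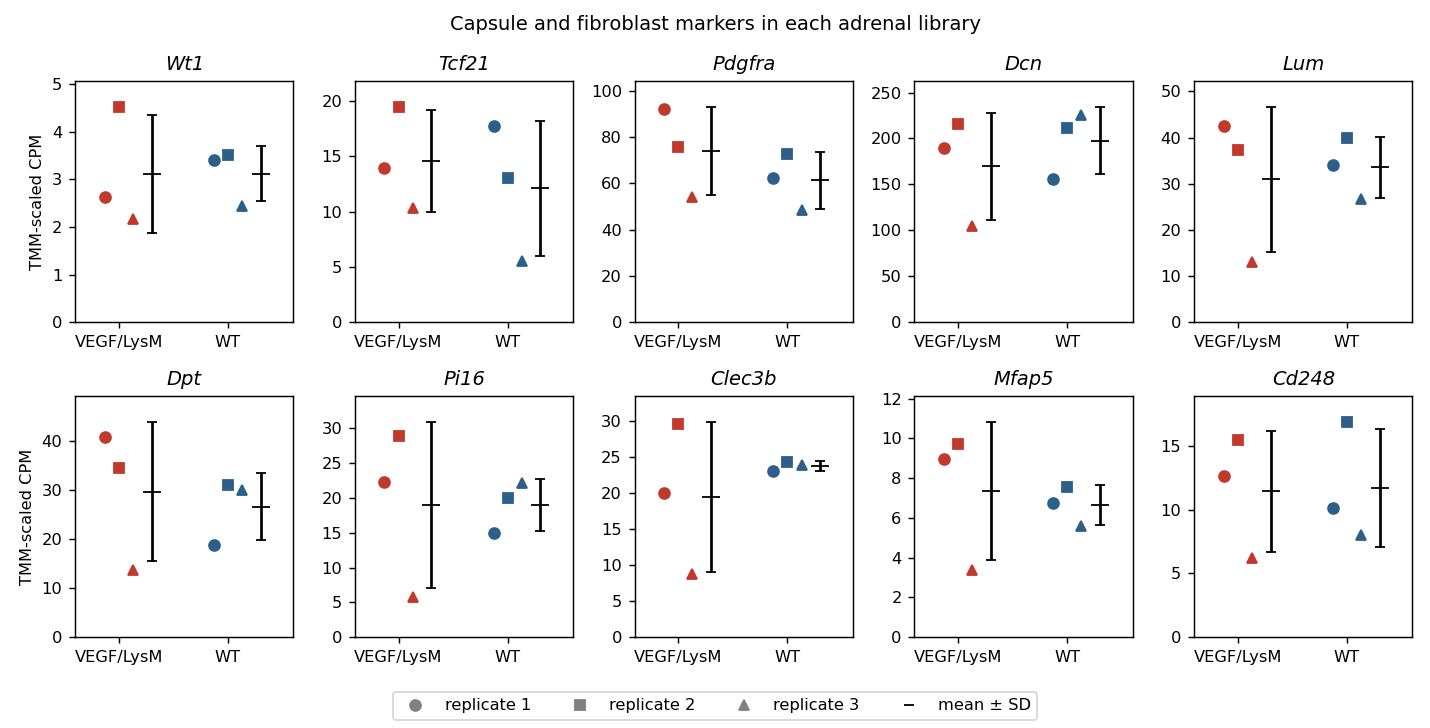
Level of each marker in TMM-scaled CPM (y axis, from 0) in the 3 VEGF/LysM and the 3 WT libraries (symbols, by replicate), with the mean ± SD of each group beside them. The triangle of VEGF/LysM replicate 3 is the lowest of its group in all 10 panels.

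The spread lay within the groups. VEGF/LysM replicate 3 had the lowest level of its group for 10 of the 10 markers, which held for 36.8% of all genes tested, and the lowest of all 6 libraries for 8 of them (15.9% of all genes). The summed level of the 10 markers was 445, 470 and 222 CPM in VEGF/LysM replicates 1, 2 and 3, against 348, 441 and 399 CPM in the WT libraries. VEGF/LysM replicate 3 was thus low and the other 2 VEGF/LysM libraries were the highest of the 6. The group means were 379 ± 137 CPM in VEGF/LysM and 396 ± 46.6 CPM in WT (SD, n = 3 each), a difference smaller than the spread in either group. The direction rested on Dcn, the most abundant marker. Without Dcn the means were 210 ± 79.6 CPM in VEGF/LysM and 198 ± 28.7 CPM in WT. The WT libraries then stood at 191, 229 and 173 CPM, with replicate 3 the lowest.

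Wt1 and Tcf21 encode transcription factors. Wt1 (ENSMUSG00000016458, chromosome 2, 105126529 to 105173616, GRCm38) is a zinc-finger factor of mesothelium, kidney podocytes and the gonadal and adrenal primordium. It was the scarcest marker, at 2.64, 4.52 and 2.18 CPM in VEGF/LysM and 3.41, 3.50 and 2.45 CPM in WT. Both replicate 3 libraries lay at the low end, and the groups overlapped. Wt1 rested on 33 to 86 counts per library, and the exact 95% Poisson interval of the lowest count was 22.7 to 46.3, which covers counting error only. Its log2 fold change was -0.006 ± 0.37 (SE), with a 95% interval of -0.88 to 0.86.

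Tcf21 (ENSMUSG00000045680, chromosome 10, 22817281 to 22820174, minus strand) is a basic helix-loop-helix factor of mesenchymal cells and marks capsular stroma in the mouse adrenal. Its levels were 14.0, 19.5 and 10.3 CPM in VEGF/LysM and 17.7, 13.0 and 5.57 CPM in WT. Here WT replicate 3 was the lowest library, at less than the lowest VEGF/LysM value. The log2 fold change of Tcf21 was 0.27 ± 0.44 with all libraries and -0.077 ± 0.28 without WT replicate 3. It also lay just under 0, at -0.018, without VEGF/LysM replicate 2.

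Pdgfra and Cd248 encode surface receptors. Pdgfra (ENSMUSG00000029231, chromosome 5, 75152292 to 75198215), the receptor for platelet-derived growth factor found on most fibroblasts, stood at 92.3, 75.6 and 54.3 CPM in VEGF/LysM and 62.5, 72.9 and 48.6 CPM in WT. The first 2 VEGF/LysM libraries exceeded every WT library, and the third lay between WT values. Pdgfra had the narrowest interval of the 10, with a log2 fold change of 0.27 ± 0.24 and a 95% interval of -0.29 to 0.83. Its highest and lowest libraries differed 1.90-fold, the least of the 10 markers. Pdgfra shares 456 exon bases with the antisense gene Gm42802, which had 0 counts in each library.

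Cd248 (ENSMUSG00000056481, chromosome 19, 5068078 to 5070682), endosialin, a glycoprotein of fibroblasts and pericytes, stood at 12.7, 15.5 and 6.18 CPM in VEGF/LysM and 10.1, 16.9 and 8.02 CPM in WT. Replicate 2 was the highest and replicate 3 the lowest in both groups. The log2 fold change of Cd248 was -0.032 ± 0.42, with a 95% interval of -1.02 to 0.95.

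Dcn, Lum, Dpt and Mfap5 encode proteins of the extracellular matrix. Dcn (ENSMUSG00000019929, chromosome 10, 97479609 to 97518143), decorin, a small leucine-rich proteoglycan that binds collagen fibrils, was the most abundant at 189, 215 and 104 CPM in VEGF/LysM and 156, 211 and 226 CPM in WT. It was the 1 marker with its highest level in WT replicate 3, and VEGF/LysM replicate 3 had the lowest. The log2 fold change of Dcn was -0.22 ± 0.29, and 0.033 ± 0.21 without VEGF/LysM replicate 3.

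Lum (ENSMUSG00000036446, chromosome 10, 97565128 to 97572703), lumican, another small leucine-rich proteoglycan of collagen fibrils, lies 47.0 kb from Dcn with 0 annotated genes between them. Its levels were 42.5, 37.3 and 13.1 CPM in VEGF/LysM and 34.0, 40.0 and 26.7 CPM in WT. VEGF/LysM replicate 3 was the lowest library for both neighbours, but WT replicate 3 was the highest of the 6 for Dcn and the second lowest for Lum. Kera, the leucine-rich proteoglycan gene on the other side of Lum, 34.2 kb away, had 0 counts in all 6 libraries, which allows up to 3 counts in each. The log2 fold change of Lum was -0.12 ± 0.42.

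Dpt (ENSMUSG00000026574, chromosome 1, 164796644 to 164824266), dermatopontin, a small matrix protein that binds decorin, stood at 40.8, 34.5 and 13.7 CPM in VEGF/LysM and 18.7, 31.0 and 30.0 CPM in WT. The VEGF/LysM values lay on both sides of the WT range. Its log2 fold change was 0.16 ± 0.41. Mfap5 (ENSMUSG00000030116, chromosome 6, 122505845 to 122529290), a glycoprotein of elastic microfibrils, stood at 8.97, 9.73 and 3.35 CPM in VEGF/LysM and 6.77, 7.57 and 5.57 CPM in WT, in the same arrangement. The log2 fold change of Mfap5 was 0.15 ± 0.42.

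Pi16 and Clec3b mark adventitial fibroblasts, which lie around vessels in many mouse tissues. Pi16 (ENSMUSG00000024011, chromosome 17, 29317680 to 29330593), a peptidase inhibitor, stood at 22.3, 28.9 and 5.71 CPM in VEGF/LysM and 14.9, 19.9 and 22.2 CPM in WT. It varied most of the 10, with 5.07-fold between its highest and lowest libraries, both VEGF/LysM. Its log2 fold change was -0.0023 ± 0.53, the widest interval of the 10 at -1.26 to 1.26.

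Clec3b (ENSMUSG00000025784, chromosome 9, 123150946 to 123157432), tetranectin, a secreted C-type lectin that binds plasminogen, stood at 19.99, 29.7 and 8.83 CPM in VEGF/LysM and 23.1, 24.4 and 23.9 CPM in WT. The WT libraries were nearly level, and the VEGF/LysM libraries spread to both sides of them. Clec3b averaged 19.5 ± 10.4 CPM in VEGF/LysM and 23.8 ± 0.65 CPM in WT (SD, n = 3 each), with a log2 fold change of -0.29 ± 0.40.

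Per kilobase of annotated exon, averaged over the 6 libraries, levels ordered as Dcn at 31.5 CPM per kb, Clec3b at 21.8, Dpt at 16.3, Lum at 13.2, Pdgfra at 6.75, Tcf21 at 5.68, Cd248 at 4.44, Pi16 at 2.98, Mfap5 at 1.95 and Wt1 at 0.50. Dcn exceeded Clec3b per kb in 6 of 6 libraries, although the ranges of these genes overlapped. Only Mfap5 and Wt1, among neighbours in this order, had ranges that did not overlap. Pdgfra exceeded Tcf21, and Tcf21 exceeded Cd248, in 4 of 6 libraries, so their order is not settled by these samples. The exon length covered all annotated transcripts of a gene, 1 for Clec3b, Dpt, Lum and Cd248 and 2 to 9 for the others. The order between genes therefore also depends on the annotation.

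**Figure D2:**
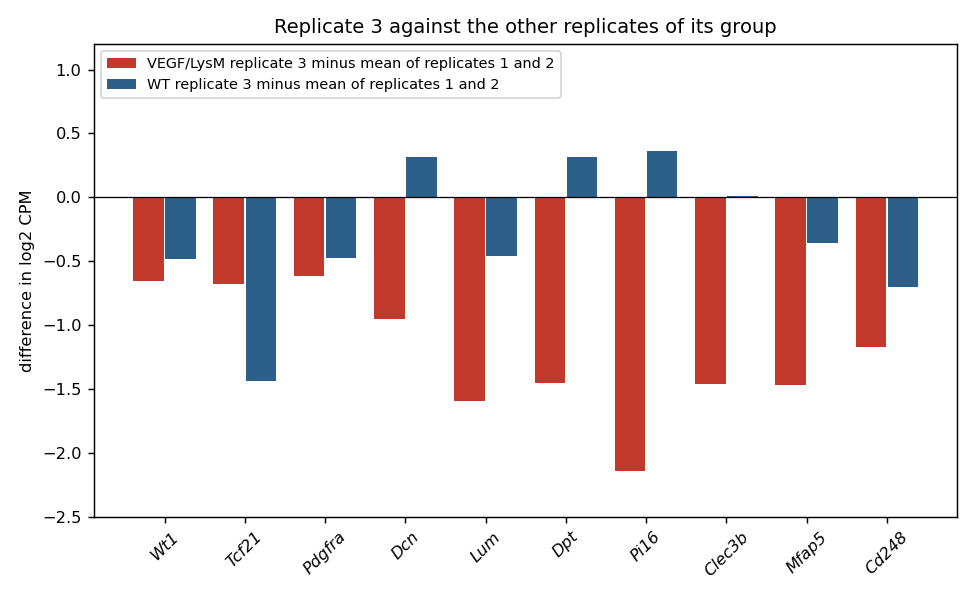
Log2 CPM of replicate 3 minus the mean of replicates 1 and 2 of the same group (y axis), for each marker (x axis), in VEGF/LysM (left bar of each pair) and WT (right bar). All VEGF/LysM bars lie below 0, from -0.62 for Pdgfra to -2.15 for Pi16, and the WT bars lie on both sides of it.

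The distance of VEGF/LysM replicate 3 from its group differed between members. Relative to the mean of VEGF/LysM replicates 1 and 2, on the log2 scale, the difference was -2.15 for Pi16, -1.598 for Lum, -1.47 for Mfap5, -1.46 for Clec3b, -1.46 for Dpt and -1.18 for Cd248. It was -0.95 for Dcn, -0.68 for Tcf21, -0.66 for Wt1 and -0.62 for Pdgfra. Pdgfra and both transcription factors thus had the smallest differences, and Pi16 the largest. Of the 10 markers, 6 were more than 1 log2 unit lower in this library, against 2.25% of all genes tested, whose median difference was 0.0065.

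WT replicate 3 had another pattern. Relative to WT replicates 1 and 2, Tcf21 differed by -1.44 and Cd248 by -0.70 on the log2 scale, while Pi16 differed by 0.37, Dpt by 0.32, Dcn by 0.31 and Clec3b by 0.012. It was the lowest WT library for 6 of the 10 markers (39.2% of all genes). The make-up of the marker transcripts also stood apart there. Dcn gave 56.6% of the summed marker level in WT replicate 3, against 42.5% to 47.0% in VEGF/LysM and 44.99% and 48.0% in the other WT libraries. For each 100 CPM of Dcn that library held 2.47 CPM of Tcf21, against 7.37 to 9.86 CPM in VEGF/LysM and 11.3 and 6.17 CPM in WT replicates 1 and 2. Pdgfra stood at 21.5 CPM for each 100 CPM of Dcn in WT replicate 3 and at 34.5 to 52.0 CPM in the other 5 libraries.

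WT replicate 3 also held mesenchymal transcripts of another organ. Of 6 genes of hepatic stellate cells, the liver's own mesenchyme, Colec10 had 13.6 CPM in WT replicate 3 and 0 counts in the other 5 libraries. Lrat, which encodes an enzyme that esterifies vitamin A for storage in those cells, had 17.6 CPM there and 0.059 to 0.28 CPM elsewhere. Summed over the 6 stellate genes the level was 367 to 427 CPM in VEGF/LysM and 357 to 435 CPM in WT, most of it from Ecm1, which adrenal libraries without liver transcripts also held (351.7 CPM in VEGF/LysM replicate 1). The podocyte gene Nphs1, which would accompany kidney Wt1, had 1 count in WT replicate 3 and 0 in every other library. The other 6 of 7 podocyte genes were also present in libraries with 0 counts of Slc34a1, and the list summed to 182 to 225 CPM in VEGF/LysM and 186 to 314 CPM in WT. Lymphocyte genes summed to 1049 CPM in WT replicate 3, against 61.4 to 271 CPM in the other 5 libraries. The lymph node stroma gene Ccl19 had 15.3 CPM in WT replicate 3 and 0 counts in every other library. The part of liver, kidney or lymph node stroma in the marker levels of WT replicate 3 was not tested.

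**Figure D3:**
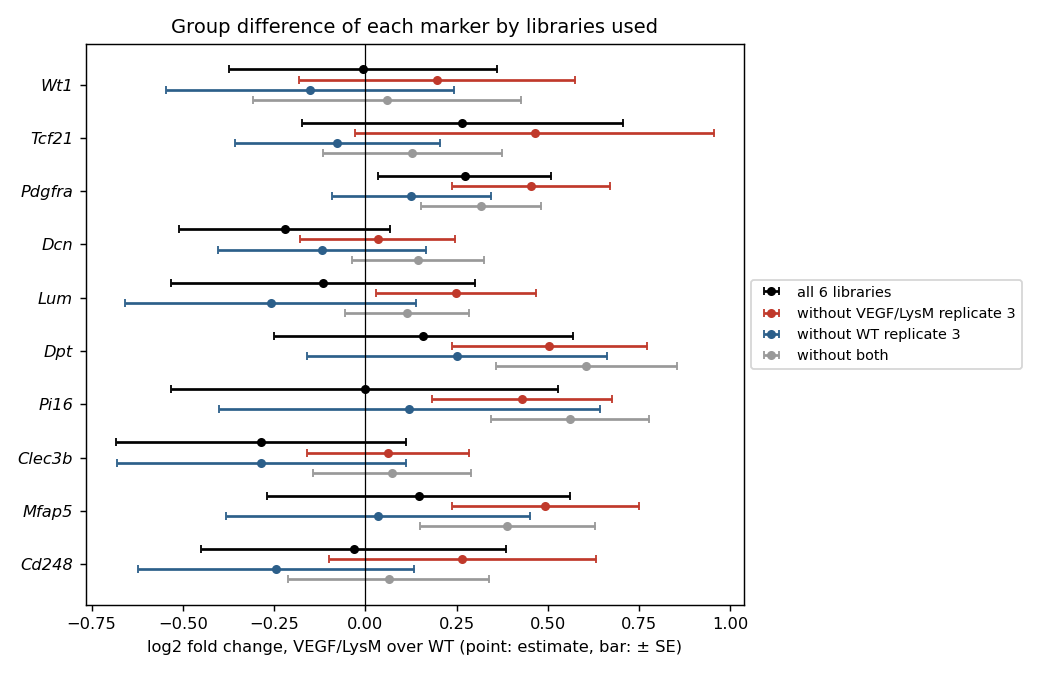
Log2 fold change, VEGF/LysM over WT (x axis, point with SE bar), of each marker (rows) with all 6 libraries, without VEGF/LysM replicate 3, without WT replicate 3 and without both. Without VEGF/LysM replicate 3 all 10 points lie above 0, and no marker passes the test in any of the 4 fits.

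Leaving out VEGF/LysM replicate 3 put 10 of 10 log2 fold changes above 0 (48.8% of all genes), with a median of 0.35. That library had the lowest level of its group for all 10 markers, so leaving it out raised each VEGF/LysM mean. The directions and separations in this fit are therefore no separate support for a difference. edgeR called 0 of the 10 in that fit (0% of all genes, 209 genes or 1.26% at an unadjusted p under 0.05), and the smallest adjusted p of the 10 was 0.999. The largest were Dpt at 0.50 ± 0.27, Mfap5 at 0.49 ± 0.26, Tcf21 at 0.46 ± 0.49 and Pdgfra at 0.45 ± 0.22 (SE). In Pdgfra, Dpt, Pi16 and Mfap5 both remaining VEGF/LysM libraries lay above the 3 WT libraries, as did 7.59% of all genes.

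Leaving out WT replicate 3 gave 4 of 10 above 0 (51.5% of all genes) and a median of -0.098, with 0 of the 10 called (0.006% of all genes) and 0 at an unadjusted p under 0.05 (2.09%). The groups separated for 0 of the 10 there, against 7.92% of all genes with VEGF/LysM higher. Without both libraries, 10 of 10 lay above 0 (50.1% of all genes), with a median of 0.14. Dpt, at 0.61 ± 0.25, and Pi16, at 0.56 ± 0.22, were then the 2 markers at an unadjusted p under 0.05 (2.31% of all genes), and their adjusted p in edgeR's test was 0.9997. This fit, too, left out the VEGF/LysM library that was lowest of its group for all 10 markers, so its counts add no support. With both libraries out, the groups separated with VEGF/LysM higher for the same 4 markers, Pdgfra, Dpt, Pi16 and Mfap5, against 14.4% of all genes. Without WT replicate 2, 8 of 10 lay above 0 (49.7% of all genes), with a median of 0.17, and scaling by library size alone put 7 of 10 above 0 (61.7% of all genes), with a median of 0.062. VEGF/LysM replicate 3 also held more medulla transcripts, at 9435 CPM for the 6 medulla genes, against 5782 and 5920 CPM in the other VEGF/LysM libraries and 3785 to 6928 CPM in WT, with none of the 6 at 0 in any library. The part of tissue make-up in the low marker levels was not tested.

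**Figure D4:**
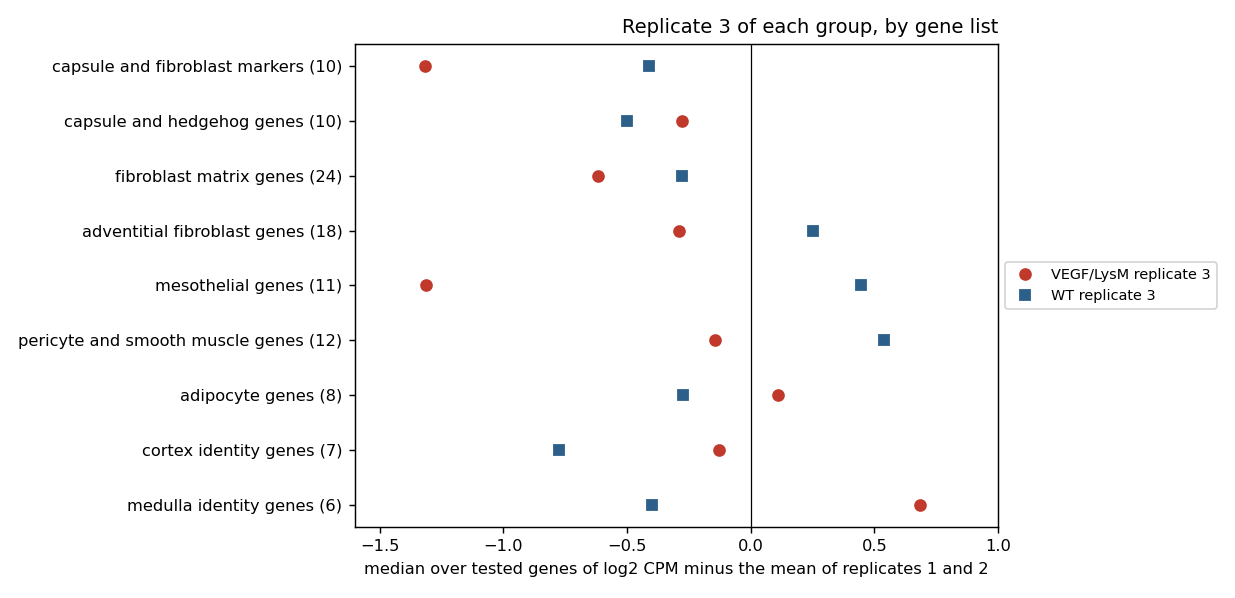
Median over the tested genes of each list (rows, number of genes in brackets) of log2 CPM in replicate 3 minus the mean of replicates 1 and 2 of its group (x axis), for VEGF/LysM and WT. The capsule and fibroblast markers, at -1.32, and the mesothelial genes, at -1.31, lie farthest below 0 in VEGF/LysM replicate 3, of the lists drawn. The lists with no row here include the lymph node stroma list, whose 1 tested gene, Cxcl13, lies at -4.35 in VEGF/LysM replicate 3.

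Other genes of the capsule and its hedgehog pathway were less low in VEGF/LysM replicate 3. None of the 10 listed was called between VEGF/LysM and WT, 7 were above 0 (50.3% of all genes) and their median log2 fold change was 0.17. Without WT replicate 3, 4 of the 10 were above 0 (51.5% of all genes) and their median was -0.0046. In VEGF/LysM replicate 3 their median was 0.28 log2 units below replicates 1 and 2 of that group. Gli1, the hedgehog-activated factor that marks capsular progenitors, stood at 10.96, 9.73 and 10.95 CPM in VEGF/LysM and 8.47, 8.35 and 6.76 CPM in WT. Its groups did not overlap, with VEGF/LysM higher, as in 3.54% of all genes, and its log2 fold change of 0.42 ± 0.21 did not pass (adjusted p = 0.999 in edgeR's test). Rspo3, the capsular signal to the outer cortex, stood at 30.4, 25.8 and 12.1 CPM in VEGF/LysM and 31.7, 33.8 and 15.4 CPM in WT, so replicate 3 was the lowest library of both groups. Boc, a hedgehog co-receptor, was the most abundant of the list, with a log2 fold change of 0.59 ± 0.41, Nr2f2, a nuclear receptor of mesenchyme, had 0.047 ± 0.18 and Smo, the hedgehog signal transducer, 0.26 ± 0.29. In WT replicate 3, Boc stood at 42.3 CPM, against 83.9 to 169 CPM in the other libraries, and Smo at 39.8 CPM, against 67.7 to 91.2 CPM.

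Of 24 other fibroblast matrix genes, 0 were called, 7 were above 0 and the median log2 fold change was -0.13. Their median in VEGF/LysM replicate 3 was 0.62 log2 units below that group's other libraries. Bgn, biglycan, a relative of decorin, had a log2 fold change of -0.038 ± 0.18, and Col6a1, a collagen VI chain, 0.32 ± 0.28. Col6a1 stood at 166 CPM in WT replicate 3, against 310 to 361 CPM in the other libraries. Fn1, fibronectin, which liver also secretes, stood at 83.5, 82.5 and 15.9 CPM in VEGF/LysM and 21.4, 111 and 1198 CPM in WT, where the high value was that of replicate 3.

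Of 18 adventitial fibroblast genes, 0 were called, 7 were above 0 and the median was -0.11. Their median difference in VEGF/LysM replicate 3 from its group's other libraries was -0.29, but Thy1 (0.66), Ly6a (0.56), Cd55 (0.52) and Procr (0.32) were among the genes with a higher level in that library. Dpp4, a surface peptidase of the fibroblasts that also carry Pi16, was at 2.58 to 4.995 CPM in VEGF/LysM and at 2.79, 4.23 and 94.5 CPM in WT. The high value was again WT replicate 3, and liver and kidney also express Dpp4. The list's 3 most abundant genes were C3, Gsn and Serping1, and C3 and Serping1, which hepatocytes secrete, were highest in WT replicate 3 at 8954 and 637 CPM.

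Mesothelial genes ordered the libraries in another way. Upk3b, a uroplakin of mesothelium, stood at 3.81, 25.8 and 2.53 CPM in VEGF/LysM and 8.25, 12.2 and 16.7 CPM in WT. Msln, mesothelin, had its highest level, 14.2 CPM, in the same VEGF/LysM replicate 2 that held the most Wt1. VEGF/LysM replicate 1, which was not low for the fibroblast markers, was low for both mesothelial genes. None of the 11 mesothelial genes was called, 5 were above 0 and the median was -0.16. Krt8 and Krt18, keratins that hepatocytes and kidney tubules also make, reached 186 and 136 CPM in WT replicate 3 and at most 3.21 CPM in any other library.

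Pericyte and smooth muscle genes, the other mesenchymal list, had a median of -0.14 in VEGF/LysM replicate 3 against its group's other libraries. Their summed level there was 439 CPM, against 353 and 387 CPM in VEGF/LysM replicates 1 and 2 and 363 to 574 CPM in WT, with none of the 12 genes at 0. Rgs5, a pericyte marker, had 110 CPM in that library, its highest of the 6. Adipocyte genes, a sign of fat around the gland, summed to 1657, 4345 and 3885 CPM in VEGF/LysM and 2884 to 4081 CPM in WT. Cfd, an adipocyte serine protease, made up 2520 of the 3885 CPM in VEGF/LysM replicate 3, and single genes of both lists lay on both sides. VEGF/LysM replicate 3 was the lowest of the 6 libraries for the contractile genes Acta2 (17.1 CPM), Myh11 (9.30 CPM), Des (18.5 CPM) and Cnn1 (0.589 CPM) and for the brown fat genes Ucp1 (11.7 CPM) and Cidea (26.5 CPM). Mylk and Tagln, also contractile genes, were not lowest in that library. Mylk stood at 59.8 CPM there, against 49.0 to 116 CPM in the other 5 libraries, and Tagln at 2.65 CPM, against 1.11 to 3.46 CPM. Notch3, a receptor of mural cells, was highest in VEGF/LysM replicate 3 at 99.05 CPM, against 33.3 to 71.8 CPM in the other 5 libraries. For Acta2, each VEGF/LysM library (20.6, 32.3 and 17.1 CPM) lay below each WT library (37.8, 37.6 and 76.9 CPM). The groups separated in this direction for 2.41% of all genes. The log2 fold change of Acta2, -1.12 ± 0.37, did not pass (adjusted p = 0.999 in edgeR's test).

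No gene of any list was called between VEGF/LysM and WT. With VEGF/LysM lower, the groups separated for 3 of 8 lymphocyte genes (2.41% of all genes). The same held for 1 of 12 pericyte and smooth muscle genes, Acta2, and 1 of 4 tested stellate genes. With VEGF/LysM higher, they separated for 1 of 10 capsule and hedgehog genes and 1 of 7 cortex identity genes (3.54% of all genes). No tested gene of the other lists separated the groups. Log2 fold changes were above 0 for 6 of 12 pericyte and smooth muscle genes (median -0.059), 3 of 8 adipocyte genes (-0.044) and 2 of 7 Schwann cell genes (-0.20). They were above 0 for 4 of 6 zona glomerulosa genes (median 0.18), 7 of 7 cortex identity genes (0.23) and 6 of 6 medulla identity genes (0.34). Without WT replicate 3 the cortex median was -0.065, and without both replicate 3 libraries the medulla median was -0.081, so both directions rested on those libraries. Of genes of tissues outside the gland, 0 of 8 lymphocyte genes (median -2.60, or -0.78 without WT replicate 3), 0 of 4 tested hepatocyte genes and 1 of 4 tested stellate genes lay above 0. Without WT replicate 3, all 4 hepatocyte genes (median 5.25) and 2 of 4 stellate genes (median -0.058) lay above 0. The size of that hepatocyte median rested on VEGF/LysM replicate 3. Without both replicate 3 libraries, 3 hepatocyte genes were tested, and all 3 lay above 0 with a median of 0.49. The podocyte list had 2 of 6 above 0 (median -0.14). The kidney tubule and lymph node stroma lists had 1 tested gene each, Lrp2 at -1.54 ± 1.09 and Cxcl13 at -2.43 ± 1.495, and both lay above 0 without WT replicate 3.

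The genes most like the markers across the 6 libraries, by the smallest root mean square difference of centred log2 CPM among 9371 candidates, were Ntm, Poln, Msx2, Pdpn and Ltbp4. Their differences from the mean marker profile were 0.12, 0.13, 0.13, 0.13 and 0.14 log2 units, against a median of 0.61 over the candidates and 0.10 to 0.52 for the markers themselves. Mfap5 was the marker closest to that profile and Tcf21 the farthest. Ltbp4, a microfibril protein that binds latent TGF-beta, stood at 257, 270 and 139 CPM in VEGF/LysM and 236, 246 and 219 CPM in WT. Pdpn, podoplanin, a glycoprotein of stromal, mesothelial and lymphatic cells, stood at 5.98, 7.73 and 2.88 CPM in VEGF/LysM and 5.63, 5.10 and 4.53 CPM in WT. Both were lowest in VEGF/LysM replicate 3, and 5 genes picked for likeness add no support to the pattern.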

How the data were processed

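Total RNA of fresh adrenal glands went through a column kit and Smart-seq2 libraries, per the labels' protocols; that chemistry does not mark strand, so overlapping and antisense genes cannot be told apart. kallisto, DESeq2 1.36.0 and mm10 were used, per the submitters' processing notes, which give no roles. The deposited table holds whole-number counts per gene, not normalised. Columns were matched to samples by title, and no 2 libraries were identical. GENCODE M21 (GRCm38, the assembly of mm10) gave coordinates and exon lengths.

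Genes passed filterByExpr (minimum count 10, total 15). edgeR 4.0.16 under R 4.3.3, with TMM scaling and group as the only term, gave quasi-likelihood tests adjusted by Benjamini-Hochberg over all 16300 genes. Threshold was 0.05. The SE was derived from that test, as the absolute log2 fold change divided by the square root of the F statistic. The 95% intervals extend that SE by a t quantile. Both are approximations. Log2 CPM added 0.5 counts. The 10 markers and 16 other lists were chosen with earlier results of these data known. Beyond the markers, the rule allowed the 3 most abundant tested genes of each list, given here where a result turned on them, and the 5 most like the markers (mean at least 1 CPM and a minimum SD over libraries set from the marker profile); others, such as Gli1, Rspo3, Dpp4, Upk3b and Msln, were named after their values were seen. Alternatives were DESeq2 1.42.0, limma-voom (limma 3.58.1), other scalings and filters, a replicate block and libraries left out.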

Additional observations from a re-analysis of the deposited data

How the results depend on the processing

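Under each alternative 0 of the 10 markers were called, and edgeR called 0 genes in all, or 0 to 1 with 1 library left out (1 without WT replicate 3). At a threshold of 0.1 it also called 0. The directions of most markers were not stable. With 1 library left out in turn, the log2 fold change ranged from -0.39 to 0.20 for Wt1, -0.077 to 0.64 for Tcf21, 0.066 to 0.45 for Pdgfra, -0.44 to 0.033 for Dcn, -0.43 to 0.25 for Lum, -0.16 to 0.50 for Dpt, -0.45 to 0.43 for Pi16, -0.74 to 0.063 for Clec3b, -0.12 to 0.49 for Mfap5 and -0.33 to 0.34 for Cd248. Pdgfra was above 0 in each of these fits. Without both replicate 3 libraries the direction turned for Wt1 (0.059), Dcn (0.14), Lum (0.11), Pi16 (0.56), Clec3b (0.072) and Cd248 (0.064). With library size only it turned for Wt1 (0.043), Pi16 (0.081) and Cd248 (0.0051), and 7 of 10 markers lay above 0. Pi16 also turned without a filter (0.0021) and with the stricter filter of 1 CPM in 3 libraries (0.00064). With all libraries and the standard settings Wt1, Pi16 and Cd248 stood at -0.006, -0.0023 and -0.032. The cause of the turns was not tested. A replicate block, with numbers from the titles, called 0 genes (270 at an unadjusted p under 0.05) and gave a marker median of -0.054. Deviations of same-numbered libraries correlated at 0.056, -0.026 and 0.25, and VEGF/LysM replicate 1 correlated best with WT replicate 2, at 0.32. Deviations within a group sum to 0, so these values cannot decide whether the numbers pair the samples. Wt1, at 33 to 86 counts, carries the most counting error of the 10.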
